A study of Mus musculus with 12 samples.

Results

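The developmental patterning genes described here were the 100 protein-coding genes of the *Hox*, *Pax*, *Tbx*, *Wnt*, *Nkx* and *Irx* families, chosen by gene symbol alone from the RefSeq annotation of mouse assembly GRCm38.p6, out of 21468 protein-coding genes of known strand. They comprised 39 *Hox* genes (11 in *Hoxa*, 10 in *Hoxb*, 9 in *Hoxc* and 9 in *Hoxd*), 19 *Wnt*, 14 *Nkx*, 13 *Tbx*, 9 *Pax* and 6 *Irx* genes. In none of 6 samples did any of the 100 genes have a peak of histone H3 lysine 36 acetylation (H3K36ac) at most 3 kb from its start, whereas 4238 of all 21468 protein-coding starts (19.7%) had one in at least 1 sample. A count of 0 of 100 allows a share of up to 3% (3 counts), or 3.62% as the upper end of an exact (Clopper-Pearson) 95% interval. Both limits cover counting error only and treat the genes as independent, which neighbours within a *Hox* cluster are not.

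The samples were chromatin of 50000 spermatogonia-enriched testis cells each, from 3 WT and 3 *Sirt7*-/- male mice of the 129S1/Sv background at postnatal day 5. *Sirt7*-/- mice carry a deletion of the gene of the deacetylase SIRT7, and each sample came from a different mouse. The samples are numbered 2, 3 and 4 in each genotype. H3K36ac chromatin was immunoprecipitated and sequenced. Broad peaks were called by the authors in each sample separately, with the matching input library as control. The values analysed here are therefore peak lists with the position, the fold over input and the -log10 q of each peak. Here q is the peak's p-value as corrected by the peak caller for multiple testing within its sample, not over the listed peaks alone. Signal tracks, which the study lists beside the peaks, were not analysed here. Spermatogonia were enriched by differential plating, and some somatic cells may have been left in every sample. In peak lists of a cell mixture, fewer cells that carry a mark and less of the mark per cell cannot be told apart.

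H3K36ac is an acetyl mark of the histone H3 tail that lies mostly at the promoters of active genes, and SIRT7 removes it. The patterning genes encode the factors that lay out the embryonic body. HOX proteins assign positions along the head-to-tail axis, and their genes sit in 4 tight clusters. PAX, TBX, NKX and IRX proteins are DNA-binding factors that specify organs such as the eye, limb, heart, thyroid and spinal cord, and WNT proteins are secreted ligands that bind Frizzled receptors and stabilise β-catenin. In germ cells many of these genes are known to be held silent by Polycomb complexes, which bind CpG-dense promoters. Expression was not analysed here, so the silence of these genes in the present samples was not examined.

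The promoters of patterning genes without any call were CpG-dense in many cases, as were those of called genes, and 5 of them are shown for this reason. The first 3 belong to the members with the most CpG in the *Hox*, *Wnt* and *Nkx* families among those whose promoter entry begins at the gene start of the annotation, and the other 2 to called genes, one of the WNT pathway and one of a Polycomb complex, again with the most CpG by the same rule among genes of their lists called in at least 2 *Sirt7*-/- samples, apart from those of a chromosome whose sequences are not printed here. Each is the 250 bases directly before the gene start, 5′ to 3′ on the strand of the gene, taken from RefSeq on GRCm38.p6, with every CpG dinucleotide in capitals.
Hoxa13 (no call, chr6:52260881-52261130, minus strand): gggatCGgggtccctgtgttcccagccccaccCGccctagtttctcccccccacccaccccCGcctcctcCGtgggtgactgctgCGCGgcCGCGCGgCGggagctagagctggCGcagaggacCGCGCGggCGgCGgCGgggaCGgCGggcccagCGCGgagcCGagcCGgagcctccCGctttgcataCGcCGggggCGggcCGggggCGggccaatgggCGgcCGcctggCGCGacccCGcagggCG
Wnt4 (no call, chr4:137277385-137277634, plus strand): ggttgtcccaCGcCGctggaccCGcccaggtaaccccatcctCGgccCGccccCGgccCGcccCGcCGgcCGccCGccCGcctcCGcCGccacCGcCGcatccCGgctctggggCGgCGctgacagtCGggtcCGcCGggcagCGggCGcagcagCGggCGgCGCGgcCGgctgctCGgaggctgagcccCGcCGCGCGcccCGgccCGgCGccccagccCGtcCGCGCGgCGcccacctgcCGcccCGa
Nkx1-1 (no call, chr5:33434091-33434340, minus strand): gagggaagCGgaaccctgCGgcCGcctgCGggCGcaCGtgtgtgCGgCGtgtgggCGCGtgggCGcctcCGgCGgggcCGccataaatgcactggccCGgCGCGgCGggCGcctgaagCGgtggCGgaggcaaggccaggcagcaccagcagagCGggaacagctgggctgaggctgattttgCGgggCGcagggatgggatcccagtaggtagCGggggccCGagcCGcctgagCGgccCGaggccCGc
Ctnnb1 (called, chr9:120933150-120933399, plus strand): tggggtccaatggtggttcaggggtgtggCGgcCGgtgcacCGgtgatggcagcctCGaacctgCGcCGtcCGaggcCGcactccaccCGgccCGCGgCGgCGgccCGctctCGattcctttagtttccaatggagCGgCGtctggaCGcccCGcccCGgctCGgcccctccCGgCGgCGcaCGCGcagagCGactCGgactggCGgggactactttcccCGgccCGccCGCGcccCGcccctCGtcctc
Suz12 (called, chr11:79992856-79993105, plus strand): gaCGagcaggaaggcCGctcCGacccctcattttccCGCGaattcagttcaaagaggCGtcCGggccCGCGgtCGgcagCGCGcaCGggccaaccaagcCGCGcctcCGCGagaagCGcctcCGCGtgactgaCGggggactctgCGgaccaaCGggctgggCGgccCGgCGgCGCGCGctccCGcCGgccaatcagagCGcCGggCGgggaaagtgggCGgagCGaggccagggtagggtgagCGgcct

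These 250 bases held 35 CpG in *Hoxa13*, which encodes a factor of distal limb and genital development, 44 in *Wnt4*, a ligand of kidney and female gonad development, and 30 in *Nkx1-1*, a homeobox gene. They held 35 in *Ctnnb1*, the gene of β-catenin, and 37 in *Suz12*, a core subunit of Polycomb repressive complex 2. The number of CpG in *Hoxa13* thus equalled that in *Ctnnb1*, and *Wnt4* exceeded both called genes. *Ctnnb1* had a peak within 3 kb of its start in *Sirt7*-/- replicates 3 and 4, at 4.14-fold and 3.56-fold over input, and *Suz12* in *Sirt7*-/- replicates 2 and 4, at 5.42-fold and 4.14-fold. Neither had one in a WT sample, and neither did *Hoxa13*, *Wnt4* or *Nkx1-1* in any sample.

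The first question was whether loss of SIRT7 brought H3K36ac peaks to patterning genes. It did so for 0 of 100 genes in each sample. Across all protein-coding starts, the share with a peak was 13.2%, 9.73% and 11.7% in the *Sirt7*-/- samples numbered 2, 3 and 4, whose lists held 2840, 2045 and 2591 peaks. For the WT samples, in the same order, it was 4.38%, 0.317% and 1.35%, from lists of 906, 64 and 294 peaks. Every *Sirt7*-/- sample was above every WT sample, with means of 11.6 ± 1.74% and 2.02 ± 2.11% (SD, n = 3 each), and a two-sided exact permutation test gave p = 0.1, the lowest value possible with 3 samples per genotype. The members therefore stood at 0 in samples whose background differed widely. With 64 peaks per sample this order of the genotypes was lost, as given under the dependence on processing. In WT replicate 3 the background itself was so low that a count of 0 of 100 is close to it, and in WT replicate 4 it lay below the 3% that 0 of 100 allows.

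**Figure D1:**
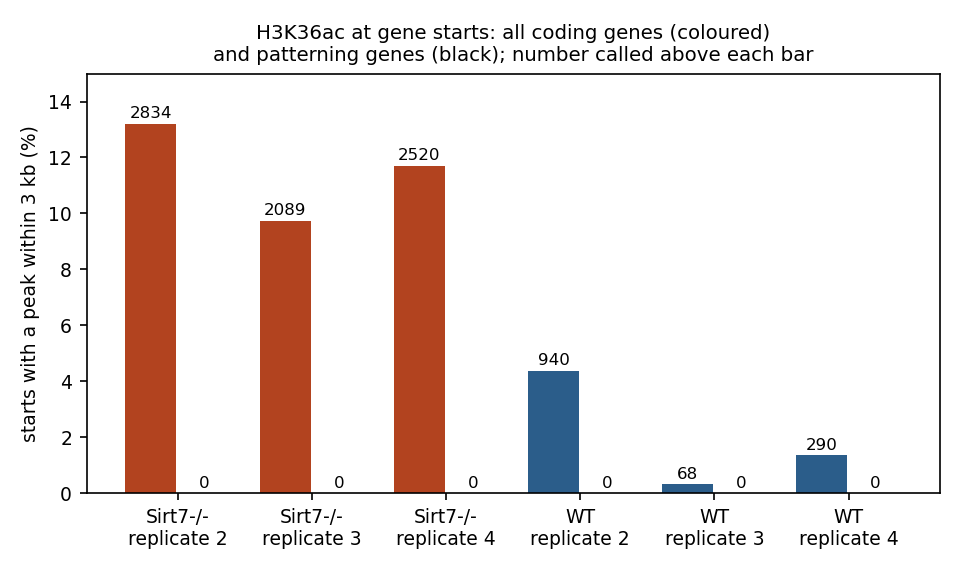
Share of gene starts with an H3K36ac peak within 3 kb, in percent, in each of the 6 samples. Coloured bars show all 21468 protein-coding genes and black bars the 100 patterning genes, with the number of genes called above each. The patterning genes are at 0 in all 6 samples, beside 2089 to 2834 coding starts called in *Sirt7*-/- and 68 to 940 in WT samples.

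Merged within each genotype, 19.3% of protein-coding starts were called in at least 1 *Sirt7*-/- sample and 5.12% in at least 1 WT sample. The pattern of a call in every *Sirt7*-/- sample and in none of the WT samples was held by 2.45% of starts. The members had 0 of 100 in each of these classes. Since the whole of the last class is small, its count of 0 lies within the limit of 3% that 0 of 100 allows. For calls in *Sirt7*-/- samples the background was well above that limit. No test was made over the members, because they were proposed with earlier results of these data known.

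All families were alike in having no call. The genes of the *Hoxa* to *Hoxd* clusters, from the anterior *Hoxb1* and *Hoxd1* to the posterior *Hoxa13*, *Hoxb13*, *Hoxc13* and *Hoxd13*, had none. Neither did *Pax6*, the eye determination factor, *Pax2* and *Pax8* of kidney and thyroid, *Tbx5* and *Nkx2-5* of the heart, *Nkx2-1* of lung and thyroid, *Wnt1* and *Wnt3a* of the neural tube, or *Irx3* and *Irx5*, which act in limb and heart. *Wnt5a* and *Wnt4*, which act in gonad development, had none either. Among gene bodies, 20.1% of all protein-coding genes were overlapped by a peak somewhere between their ends, and *Wnt5b* was the single member so overlapped.

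The *Wnt5b* peaks lay 64.7 kb or more downstream of its start. *Wnt5b* encodes a ligand of β-catenin-independent WNT signalling, and its RefSeq gene runs on the minus strand of chromosome 6 from 119432531 to 119544824. The peaks ran from 119479184 to 119480104 in *Sirt7*-/- replicate 3, at 5.16-fold over input and a -log10 q of 3.33, and from 119479069 to 119479772 in *Sirt7*-/- replicate 4, at 3.76-fold and 1.51. In both samples the peak covered the start of *Fbxl14*, a ubiquitin ligase gene that lies within the *Wnt5b* gene model. No WT sample and no other *Sirt7*-/- sample had a peak there, and the start of *Wnt5b* itself had 47 CpG in the 300 bases around it.

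The description of the members as having CpG-rich promoters was checked against the RefSeq promoter sequences, which run from 250 bases before to 50 bases after the start. For each gene only the promoter entry nearest to its annotated gene start was used, so CpG content at other starts of a gene was not counted. Sequences were matched for 67 of the 100 members. As this is fewer than 80%, a check over the whole set is void, and the values below describe those 67. Their median was 18 CpG per 300 bases, a GC content of 60.3% and an observed-to-expected CpG ratio of 0.699 (the number of CpG relative to that given by the C and G content), against 13, 56.3% and 0.577 over the 17492 protein-coding genes with a sequence. A promoter with a ratio of at least 0.75 and a GC content of at least 55% was classed as high in CpG, one with a ratio under 0.48 as low, and the others as intermediate. Of the 67 members, 24 (35.8%) were high, 26 intermediate and 17 low, and 5252 of the 17492 protein-coding genes with a sequence were high. At the starts measured, the label of CpG-rich promoters thus fitted a part of the members.

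**Figure D2:**
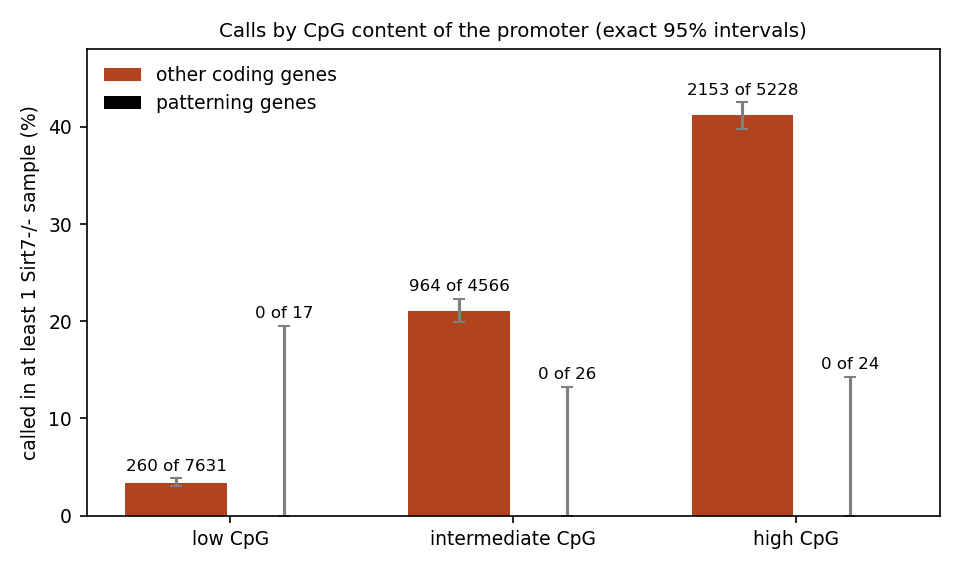
Share of genes called in at least 1 *Sirt7*-/- sample, in percent, by CpG class of the promoter, for patterning genes and for all other protein-coding genes with a promoter sequence. Grey bars are exact 95% intervals for counting error. Other coding genes rise from 260 of 7631 in the low to 2153 of 5228 in the high class, and the patterning genes are at 0 of 17, 0 of 26 and 0 of 24.

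Calls rose with CpG content across protein-coding genes. The members are set beside them by class, where their counts follow from the 0 of 100 already given. Counted over all protein-coding starts, 41.0% of the high class, 21.0% of the intermediate and 3.40% of the low class were called in at least 1 *Sirt7*-/- sample. Among genes other than the members, the high class had 2153 of 5228 called, or 41.2% (exact 95% interval 39.84 to 42.53%). The members of the high class had 0 of 24, whose exact interval reached 14.25%. In the intermediate class the members had 0 of 26, with an interval up to 13.23%, against 964 of 4566 other genes, or 21.1% (19.94 to 22.33%). In the low class 0 of 17 members, with an interval up to 19.51%, stood beside 3.41% (3.01 to 3.84%) of other genes, a difference not detectable with so few members. The intervals treat the members as independent and were not used as a test.

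The most CpG-dense members were *Wnt9a* with 58 CpG per 300 bases, *Wnt4* with 51, *Wnt5b* with 47, and *Wnt3a*, *Wnt11* and *Hoxa13* with 45 each. All 6 were without a call in any sample. Of the members, 32 had at least 20 CpG, and 0 of them were called. Of 6277 other protein-coding genes with at least 20 CpG, 2402 (38.3%) were called in at least 1 *Sirt7*-/- sample. By family, the median was 31 CpG for 15 *Wnt* genes with a sequence, 25 for 3 *Irx*, 21 for 11 *Nkx*, 20 for 9 *Hoxd*, 15 for 9 *Hoxa*, 13 for 7 *Pax* and 8 for 9 *Tbx* genes. At the starts measured, the families thus ranged from CpG-dense to CpG-poor, and at the CpG-poor end a count of 0 is close to the background. Other starts of the same genes may differ in CpG content. *Hoxb*, with 3 sequences, and *Hoxc*, with 1, were too thinly covered to describe.

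The members without a promoter sequence included *Hoxa4*, *Hoxb2*, *Hoxb3*, *Hoxb5*, *Hoxb6*, *Hoxb7*, *Hoxb9*, *Hoxb13*, *Hoxc5*, *Hoxc6*, *Hoxc8*, *Hoxc9*, *Hoxc10*, *Hoxc11*, *Hoxc12*, *Hoxc13*, *Irx1*, *Irx5*, *Irx6*, *Nkx2-6*, *Nkx6-3*, *Pax3*, *Pax4*, *Tbx2*, *Tbx3*, *Tbx5*, *Tbx15*, *Wnt5a*, *Wnt7b*, *Wnt8a* and *Wnt10a*. The 33 members without a sequence had no call, while 759 of 3943 other protein-coding genes without a sequence (19.2%) were called in at least 1 *Sirt7*-/- sample.

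The 4 *Hox* clusters were examined as whole intervals, from the first to the last base of their *Hox* genes. No peak of any sample lay inside any of them. *Hoxa* spans 105.5 kb of chromosome 6 from 52155367 to 52260880 and holds 21 annotated gene starts, 11 coding and 10 non-coding. *Hoxb* spans 173.9 kb of chromosome 11 from 96194316 to 96368254 with 19 starts, *Hoxc* 115.7 kb of chromosome 15 from 102921131 to 103036856 with 14 starts, and *Hoxd* 96.9 kb of chromosome 2 from 74668225 to 74765142 with 14 starts. The absence of peaks therefore covered the non-coding transcripts of the clusters as well as the *Hox* genes. Each span was shorter than the median peak-free stretch around protein-coding starts, 644.3 kb with the peaks of all 6 samples merged. Peak-free intervals of such lengths were thus common and not particular to the clusters.

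**Figure D3:**
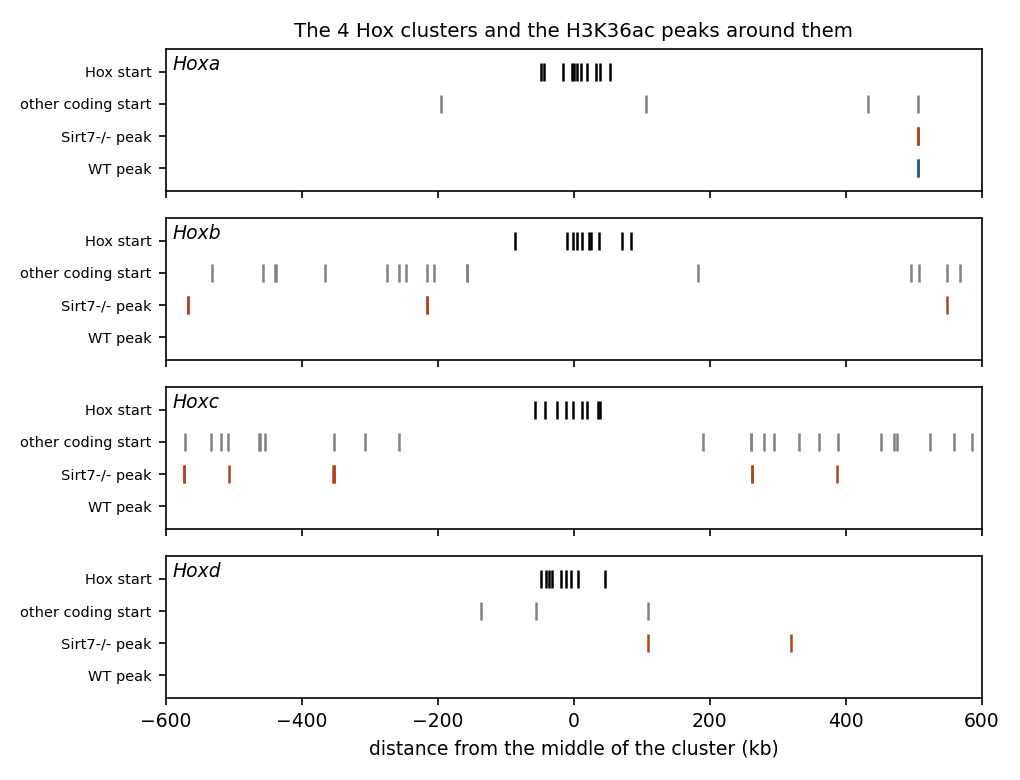
Map of the 4 *Hox* clusters, with distance from the middle of each cluster in kb. Ticks mark *Hox* starts (black), other protein-coding starts (grey), and peaks of the 3 *Sirt7*-/- (red) and 3 WT samples (blue). No peak falls among the *Hox* starts, and the nearest peaks lie 60.9 kb (*Hoxd*) to 452.9 kb (*Hoxa*) outside them. The nearest peaks on the low side of *Hoxa*, at 562.5 kb, and of *Hoxd*, at 757.0 kb, are outside the map.

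The peaks nearest to the clusters lay at other genes. On the high side of *Hoxd*, 60.9 kb beyond the cluster, a peak of *Sirt7*-/- replicate 2 lay 192 bp from the start of *Mtx2*, a mitochondrial import gene, at 4.36-fold over input and a -log10 q of 2.41. On the low side of *Hoxb*, at 129.0 kb, a peak of the same sample lay 4 bp from the start of *Ube2z*, a ubiquitin-conjugating enzyme gene, at 4.40-fold. On the high side of *Hoxc*, at 203.2 kb, a peak of *Sirt7*-/- replicate 4 lay 105 bp from the start of *Hnrnpa1*, which encodes an RNA-binding protein of splicing, at 3.73-fold. On the high side of *Hoxa*, at 452.9 kb, a peak of *Sirt7*-/- replicate 2 lay 111 bp from the start of *Tax1bp1*, an autophagy receptor gene, at 7.23-fold and a -log10 q of 9.05. WT peaks lay at *Tax1bp1* as well, including that of WT replicate 3, and no WT peak lay in the mapped surroundings of the other clusters. Between the nearest peaks on either side, the peak-free stretch measured 1120.9 kb around *Hoxa*, 914.8 kb around *Hoxd*, 764.3 kb around *Hoxb* and 614.5 kb around *Hoxc*.

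By median, peak-free stretches were longer around the 100 members, at 914.8 kb, than around the 20790 protein-coding starts with a peak on both sides, at 644.3 kb. The stretch around *Hoxc*, at 614.5 kb, was shorter than the latter. This measure merges the peaks of all 6 samples, and genes of one cluster share one stretch. The median distance from a member start to the nearest *Sirt7*-/- peak was 239.9 kb, against 97.4 kb for all protein-coding starts. To the nearest WT peak it was 886.3 kb, against 474.1 kb. Within 100 kb, 23 of 100 members had a peak of any sample, against 50.7% of all protein-coding starts, and within 250 kb the counts were 53 of 100 and 69.2%. At the longest distances the order turned, and all members had a *Sirt7*-/- peak within 1480.3 kb while some coding genes had none.

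**Figure D4:**
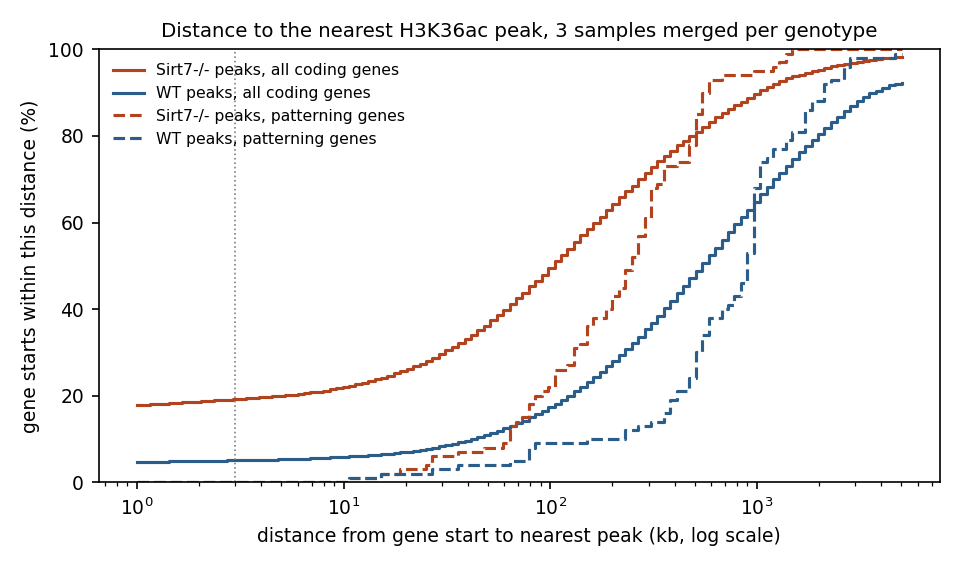
Cumulative share of gene starts, in percent, against the distance to the nearest peak in kb on a log scale, for peaks of the 3 *Sirt7*-/- (red) and the 3 WT samples (blue) merged. Solid lines are all protein-coding genes and dashed lines the patterning genes, and the dotted line marks 3 kb. Patterning genes leave 0 only beyond 10 kb, where 22.1% of all coding starts already had a *Sirt7*-/- peak, and their curves cross those of all genes at the longer distances.

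Sample by sample, the median distance from a member to the nearest peak was 265.4, 507.4 and 297.5 kb in the *Sirt7*-/- samples numbered 2, 3 and 4, where that of all protein-coding starts was 162.2, 250.2 and 185.3 kb. In WT replicate 2 it was 900.6 kb against 570.6 kb, and in WT replicate 3, with its 64 peaks, 10380.4 kb against 8352.0 kb. In WT replicate 4 it was 2163.8 kb against 2183.1 kb. Members were thus farther from peaks than coding genes in 5 of 6 samples and slightly nearer in WT replicate 4. Chromosomes without a peak were left out, which affected 11 members in WT replicate 3 and 1 in each of the other WT samples. Within 100 kb there were 19, 12 and 20 of 100 members in the *Sirt7*-/- samples and 9, 0 and 0 in the WT samples, in order of number. The shares of all protein-coding starts were 38.8, 30.7 and 36.5% in the *Sirt7*-/- and 15.3, 1.36 and 5.18% in the WT samples. In WT replicate 3 a count of 0 of 100 is thus close to the background.

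The members nearest to a peak belonged to the *Tbx*, *Wnt* and *Pax* families. The nearest was *Tbx6*, a factor of somite formation on chromosome 7, whose start at 126781483 lay 10.4 kb from a peak of WT replicate 2 and 10.5 kb from one of *Sirt7*-/- replicate 2. These peaks, at 4.13-fold and 4.86-fold over input, and that of *Sirt7*-/- replicate 4, at 4.23-fold, lay 151 to 404 bp from the start of *Ppp4c*, a protein phosphatase gene. *Wnt10b* and *Wnt1*, neighbouring ligand genes on chromosome 15, were 15 and 26.7 kb from 1 and the same peak at most 107 bp from the start of *Arf3*, a vesicle traffic gene. That peak was called in all 3 *Sirt7*-/- samples, at 4.05-fold, 5.48-fold and 3.88-fold over input in replicates 2, 3 and 4, and in WT replicate 2 at 4.11-fold. The signal in these neighbourhoods therefore sat at the other gene.

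*Wnt7b*, a ligand of lung and kidney development, was 18.1 kb from a peak of *Sirt7*-/- replicate 2 at 3.93-fold and a -log10 q of 1.66, ranked 1985 of 2840 in its list. That peak, on chromosome 15 from 85599891 to 85600111, had no gene start nearer than that of *Wnt7b*. *Tbx18*, a factor of the heart and ureter, was 24.7 kb from a peak of the same sample at 3.64-fold, ranked 2644 of 2840. Each of these peaks was called in 1 sample only and ranked in the lower part of its list. *Pax4*, of the endocrine pancreas, was 25.4 kb from a peak of *Sirt7*-/- replicate 4 at 4.17-fold, which lay 97 bp from the start of *Arf5*.

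*Pax5*, the B cell commitment factor, was 46.0 kb from peaks 87 to 195 bp from the start of *Zcchc7*, present in the 3 *Sirt7*-/- samples and absent from the WT lists, at 5.32-fold, 4.66-fold and 3.65-fold in replicates 2, 3 and 4. *Wnt8a*, an early embryonic ligand, was 35.1 kb from peaks called in all 3 *Sirt7*-/- samples and WT replicate 2, with folds of 5.92, 4.76, 4.97 and 4.59 in that order. Those peaks were more than 15 kb from any start of the gene table. At the other extreme stood *Irx5*, 1480.3 kb from the nearest peak, *Irx6* at 1337.4 kb, *Irx1* at 1325.7 kb and *Tbx15* at 1223.0 kb. The *Irx* genes had the largest median distance of the families, at 1232.6 kb, and the *Wnt* genes the smallest, at 78.6 kb.

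For 87 of the 100 members the nearest peak lay within 3 kb of the start of another gene, and the start nearest to the peak was protein-coding for 86. The exception was *Nkx6-2*, whose nearest peak covered the start of a long non-coding RNA and also that of the protein-coding *Inpp5a*. Neighbouring members shared peaks, so that the 100 members had 52 different nearest peaks, of which 42 lay within 3 kb of a gene start. The paper located H3K36ac peaks primarily at promoters in both genotypes, and the share over all peaks was not counted here. The position of the nearest peaks was therefore not read as a trait of the members. A *Sirt7*-/- peak was nearer than any WT peak for 96 members. This count was not made over all protein-coding starts, whose median distance was 97.4 kb to a *Sirt7*-/- and 474.1 kb to a WT peak. The *Sirt7*-/- lists were also longer than the WT lists, and the part of list length in the count of 96 was not tested.

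Genes next to the members were called about as often as coding genes in general. The nearest protein-coding genes of other families on either side of each member were 100 different genes, of which 23 (23.0%) were called in at least 1 *Sirt7*-/- and 7 in at least 1 WT sample, beside 19.3% and 5.12% of all protein-coding starts. *Arf1*, *Arf3*, *Cdc42*, *Gosr2* and *Herpud2* were called in all 3 *Sirt7*-/- samples and 1 WT sample each. *Erc1*, *Xrn2* and *Zcchc7* were called in each *Sirt7*-/- sample and in none of the WT samples. These 8 genes are those of the 100 with a call in all 3 *Sirt7*-/- samples.

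Genes that act with the patterning genes were compared by lists, which were drawn up with earlier results of these data known. Receptors and coreceptors of WNT ligands were called in at least 1 *Sirt7*-/- sample for 3 of 15 genes (20.0%) and in at least 1 WT sample for 1. *Lrp6*, the WNT coreceptor, was called in all 3 *Sirt7*-/- samples and WT replicate 2, at 4.80-fold, 5.02-fold, 4.08-fold and 5.40-fold over input. *Fzd2* was called in 2 and *Fzd3* in 1 *Sirt7*-/- sample. Genes of WNT secretion and signal transduction were called for 7 of 22 (31.8%) in *Sirt7*-/- and 2 in WT samples. The exact 95% interval of the *Sirt7*-/- share, 13.9 to 54.9%, includes the background of 19.3%. The list was led by *Apc* and *Csnk1a1*, parts of the β-catenin destruction complex, and *Tcf7l2*, a DNA-binding partner of β-catenin. The secreted antagonists, such as *Dkk1* and *Sfrp1*, were called for 0 of 11 genes, like the 19 *Wnt* ligands. With only 11 antagonists the exact 95% interval reaches 28.5%, which includes the background of 19.3% and the share of the receptors, so a difference was not detectable.

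Genes of the TALE homeobox class, some of which encode cofactors that bind DNA beside HOX proteins, were called for 4 of 11 (36.4%) in *Sirt7*-/- samples. They were *Tgif1* and *Tgif2*, each in 3 *Sirt7*-/- and 0 WT samples, *Pknox1*, in 2 *Sirt7*-/- samples and 1 WT sample, and *Pbx2*, in 1 *Sirt7*-/- sample. The exact interval of the TALE share, 10.93 to 69.21%, includes the background of 19.3%, so a difference was not detectable. Polycomb subunits, which repress patterning genes, were called for 18 of 30 genes (60.0%) in *Sirt7*-/- and 5 (16.7%) in WT samples. *Aebp2* was called in 3 *Sirt7*-/- and 2 WT samples, and *Jarid2* and *Rbbp4* in 3 *Sirt7*-/- samples and 1 WT sample each. Subunits of the KMT2 and COMPASS complexes, which methylate histone H3 lysine 4 and oppose Polycomb, were listed together with *Kdm6b*, a histone demethylase gene. Of these 14 genes, 8 (57.1%) were called in *Sirt7*-/- and 3 (21.4%) in WT samples, led by *Kmt2c*, *Setd1b* and *Setd1a*. Both lists stood above the background of 19.3%, and the patterning genes at 0. Among genes with a promoter sequence, 16 of 25 Polycomb subunits and 5 of 9 in the KMT2 and COMPASS list were high in CpG. Over all coding starts of that class, 41.0% were called in at least 1 *Sirt7*-/- sample. The exact interval of the KMT2 and COMPASS share, 28.86 to 82.34%, and that of the Polycomb share, 40.6 to 77.34%, both include 41.0%. The part of CpG class in these shares was not tested, and no test was made between lists.

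**Figure D5:**
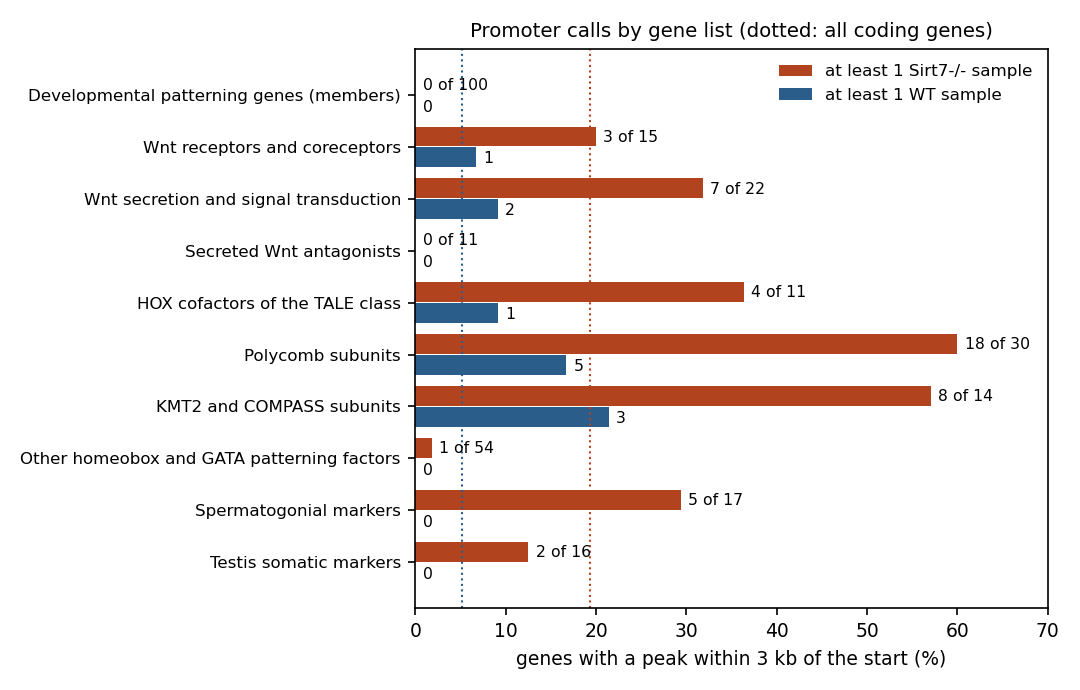
Share of genes with a peak within 3 kb of the start, in percent, in at least 1 *Sirt7*-/- (red) and at least 1 WT sample (blue), by gene list, with the number called beside each bar. Dotted lines mark the share of all protein-coding genes, 19.3% and 5.12%. Patterning genes, secreted WNT antagonists and other homeobox and GATA factors are at or near 0. Polycomb subunits are at 60.0%, and the KMT2 and COMPASS list, which includes *Kdm6b*, is at 57.1%.

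Other homeobox and GATA patterning factors resembled the members, with 1 of 54 genes called (1.85%). It was *Six4*, called in *Sirt7*-/- replicate 3 at 4.26-fold and a -log10 q of 1.80. As a check of the cell type, markers of spermatogonia were called for 5 of 17 genes in *Sirt7*-/- samples, namely *Etv5*, *Gfra1*, *Zbtb16*, *Uchl1* and *Dazl*, each in 1 sample, and for 0 of 17 in WT samples. Markers of Sertoli, Leydig and peritubular cells were called for 2 of 16 in *Sirt7*-/- samples, *Sox9* and *Dhh*, each in 1 sample, and for 0 of 16 in WT samples. Calls at markers were thus too few to weigh the cell types by, and the part of somatic cells in the counts was not tested. Coverage was not analysed here, so the absence of a peak at a patterning gene shows that the authors' threshold was not passed and not that the mark was absent.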

How the data were processed

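Per the labels and the study's methods, reads were trimmed with Trim Galore 0.6.6, aligned to mm10 with Bowtie2 2.4.4.1, filtered with SAMtools 1.19.2 (mapping quality of at least 30), and MACS2 2.2.5 called broad peaks (broad cutoff 0.1) in each sample, the matching input serving as control. The deposited lists give each peak's fold over input (a ratio), -log10 p and -log10 q, and a score, which was not used. The 6 input samples entered only through peak calling. The lists hold no read depth, and signal tracks were not used here.

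A gene was called in a sample when a peak lay within 3000 bp of its start. Genes came from RefSeq (GRCm38.p6, the assembly of mm10), with strand from the RefSeq promoter table (17492 coding genes) or, by symbol, from GENCODE vM39 (3976). Another 419 had no strand and were left out. Members and lists were chosen with earlier results of these data known. Every member with a call was to be named, with its values. As there was none, the members nearest to a peak are named, and the genes of other lists by number of samples called. The cases of highest CpG, of farthest distance and of called neighbours were chosen after their values were seen. Sequences from chromosome 18 are not printed here, so its called genes (*Apc* and *Csnk1a1* among them) were passed over in choosing the called promoters to show. The call rule was tested on simulated data. Scripts ran under Python 3.11.15 with SciPy 1.17.1 for the exact tests and intervals, NumPy 2.4.6 and pandas 2.3.3, and figures were drawn with matplotlib 3.10.9. Some single genes are not reported here by name.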

Additional observations from a re-analysis of the deposited data

How the results depend on the processing

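The count of 0 members, in *Sirt7*-/- and in WT samples, was also 0 in the alternatives that could have raised it, 5000 or 10000 bp around the start and every start of the promoter table. Settings that only remove peaks, starts or samples (1000 bp, a -log10 q of at least 2, peaks of at least 500 bp, 64 peaks per sample, the nearest start only, autosomes only with 99 members, each replicate left out) could give nothing but 0, as could either end of genes without strand, which adds no member. The 10000 bp window, the promoter table starts and the whole gene were added after seeing the data. With the whole gene and 3 kb either side, *Wnt5b* made the count 1 in *Sirt7*-/- and 0 in WT samples, a difference of 0.667 members per sample. No member had a call, so no test per member was run. The share of all coding starts was 9.54 percentage points higher in *Sirt7*-/- samples, also with a replicate block (exact permutation p = 0.25, the smallest possible). Over called starts, same-numbered samples of the 2 genotypes did not deviate together (r of -0.042, -0.072 and 0.011), and the numbers were not taken as pairs. The shares of coding starts, however, had the same order by number in both genotypes, highest in replicate 2 and lowest in replicate 3. An effect of the number on these shares was not tested. The difference in share turned to -0.0264 with 64 peaks per sample, which removes most *Sirt7*-/- peaks by construction. In the other alternatives it was between 4.95 and 11.0. Samples of 3 against 3, short WT lists and the use of peak calls alone, with signal tracks not analysed here, limit these counts.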
